A study of Mus musculus with 9 samples.

Results

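The 9 genes described here encode the entry of the cardiac adrenergic and muscarinic pathway: the receptors Adrb1, Adra1a, Adra1b and Chrm2, the G protein subunits Gnas, Gnai2 and Gnb3, and the adenylyl cyclases Adcy5 and Adcy6. They were taken by symbol from the 22851 genes of a count matrix made from mouse heart RNA. All 9 had a row and all 9 passed the low-count filter in every comparison.

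In the heart, noradrenaline and adrenaline bind the beta-1 adrenergic receptor, whose stimulatory G protein makes adenylyl cyclase produce cAMP. Protein kinase A, switched on by cAMP, phosphorylates calcium channels and contractile proteins and so raises the rate and force of the beat. The muscarinic receptor M2 opposes this through inhibitory G proteins, and alpha-1 receptors use another G protein class that leads to calcium release and growth signals.

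RNA was sequenced from 9 heart libraries of C57BL/6 mice, as the labels give the strain (C57BL/6J in the study's methods), 3 in each of 3 groups. CK mice received citrate buffer only. DCM mice, a model of type 1 diabetes with cardiomyopathy, received a single dose of streptozotocin, a toxin of insulin-producing cells, at 180 mg/kg and were studied 12 weeks later. SPM mice received the same streptozotocin and, in addition, the polyamine spermine at 1 mg/kg per injection. Spermine dosing was daily at first, from 2 weeks ahead of the toxin, and then every second day up to week 12. The mice were males aged 6 to 8 weeks at the start per the study's methods, no group received spermine alone, and DCM and SPM share the streptozotocin. The methods give 3 mice per group in their RNA paragraph but speak of pooled hearts in their statistics paragraph, so a library may be a mouse or a pool, and p-values measure the spread between libraries only.

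Total counts lay between 29901300 and 39718680 per library. The deposited extraction protocol speaks of retinas, but the tissue label is heart, and the libraries carried heart RNA: the 6 measured of 8 cardiomyocyte markers summed to between 32543 and 44514 normalized CPM, whereas the 7 measured of 8 retinal markers summed to between 0.422 and 1.82. Normalized CPM here is the usual CPM, a gene's count relative to all counts on genes, after TMM scaling over the 9 libraries. Genes encoded by mitochondrial DNA took 13.7% to 18.9% of the counts in CK and DCM and 21.01% to 21.09% in SPM. SPM replicate 2 stood apart. It lay between SPM replicates 1 and 3 for 66.6% of 14574 genes, against 15.5% to 38.9% for the other 8 libraries, and of 2656 genes at 0 in replicates 1 and 3 only 30 had a count in it, against 485 to 1162 for the others. For 6 of the 9 genes its value also lay between those of the other 2. Whether it is an independent sample cannot be told from the labels, so results with SPM are given with and without it.

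The promoters of the members that RefSeq gives are shown first, because the cAMP response element, TGACGTCA, is the best known DNA target of this pathway's own transcription factors. Windows of 300 bases, 250 before and 50 after a start, were held by RefSeq (GRCm38.p6) for 5 of the 9 genes. Capitals mark the shorter core TGACG on either strand (TGACG or CGTCA), which also lies inside the full element. Each line runs 5′ to 3′ along the strand of the gene.
Adrb1, chr19:56721867-56722166, plus strand: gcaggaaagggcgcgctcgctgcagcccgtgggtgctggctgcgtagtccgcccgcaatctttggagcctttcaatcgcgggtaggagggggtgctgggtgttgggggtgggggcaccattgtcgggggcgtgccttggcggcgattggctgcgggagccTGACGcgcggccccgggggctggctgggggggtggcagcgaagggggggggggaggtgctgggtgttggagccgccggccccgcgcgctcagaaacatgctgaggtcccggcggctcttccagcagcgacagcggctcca
Adra1b, chr11:43836440-43836739, minus strand: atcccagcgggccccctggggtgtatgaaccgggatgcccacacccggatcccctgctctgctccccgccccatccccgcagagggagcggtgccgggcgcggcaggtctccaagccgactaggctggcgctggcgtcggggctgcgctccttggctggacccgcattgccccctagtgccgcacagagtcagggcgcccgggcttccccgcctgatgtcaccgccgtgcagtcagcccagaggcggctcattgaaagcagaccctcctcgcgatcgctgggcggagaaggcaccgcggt
Chrm2, chr6:36387834-36388133, plus strand: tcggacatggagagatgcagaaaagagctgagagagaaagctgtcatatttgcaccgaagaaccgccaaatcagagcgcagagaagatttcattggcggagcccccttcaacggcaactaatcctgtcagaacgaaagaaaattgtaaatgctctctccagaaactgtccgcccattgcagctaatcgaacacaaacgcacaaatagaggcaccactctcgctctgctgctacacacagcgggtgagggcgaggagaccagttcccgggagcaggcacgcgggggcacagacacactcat
Gnas, chr2:174329756-174330055, plus strand: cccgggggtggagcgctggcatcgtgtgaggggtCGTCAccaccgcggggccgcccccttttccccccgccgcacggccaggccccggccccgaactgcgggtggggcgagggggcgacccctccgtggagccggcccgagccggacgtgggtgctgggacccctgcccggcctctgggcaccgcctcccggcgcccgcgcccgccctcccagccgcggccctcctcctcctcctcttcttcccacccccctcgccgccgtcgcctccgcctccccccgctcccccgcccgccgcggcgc
Adcy5, chr16:35154614-35154913, plus strand: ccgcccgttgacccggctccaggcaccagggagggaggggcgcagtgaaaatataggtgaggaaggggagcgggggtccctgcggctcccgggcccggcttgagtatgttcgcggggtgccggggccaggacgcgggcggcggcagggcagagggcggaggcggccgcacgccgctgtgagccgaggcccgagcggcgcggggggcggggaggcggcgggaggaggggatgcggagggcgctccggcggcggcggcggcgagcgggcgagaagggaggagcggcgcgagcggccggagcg

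The full element TGACGTCA was in none of the 9 windows of these 5 genes, and 1.79% of all 32851 mouse windows held it. The shorter core was in the window of Adrb1 and in 3 of the 4 windows of Gnas, 1 match each, where 20.8% of all windows held it. The Gnas windows that start at bases 174327499 and 174327518 overlap and hold the same match. The windows of Adcy5, at 79.0% GC, and of Gnas shown here, at 81.7%, stood far above the median window of 52.7%, while that of Chrm2, at 52.7%, equalled it. Adra1b has a start of high GC content, shown above with 71.3%, and an upstream start with 42.3%. These matches describe letters and not binding. The GC content set against fold changes below is that of the longest transcript, and promoter GC content was not tested against them.

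**Figure D1:**
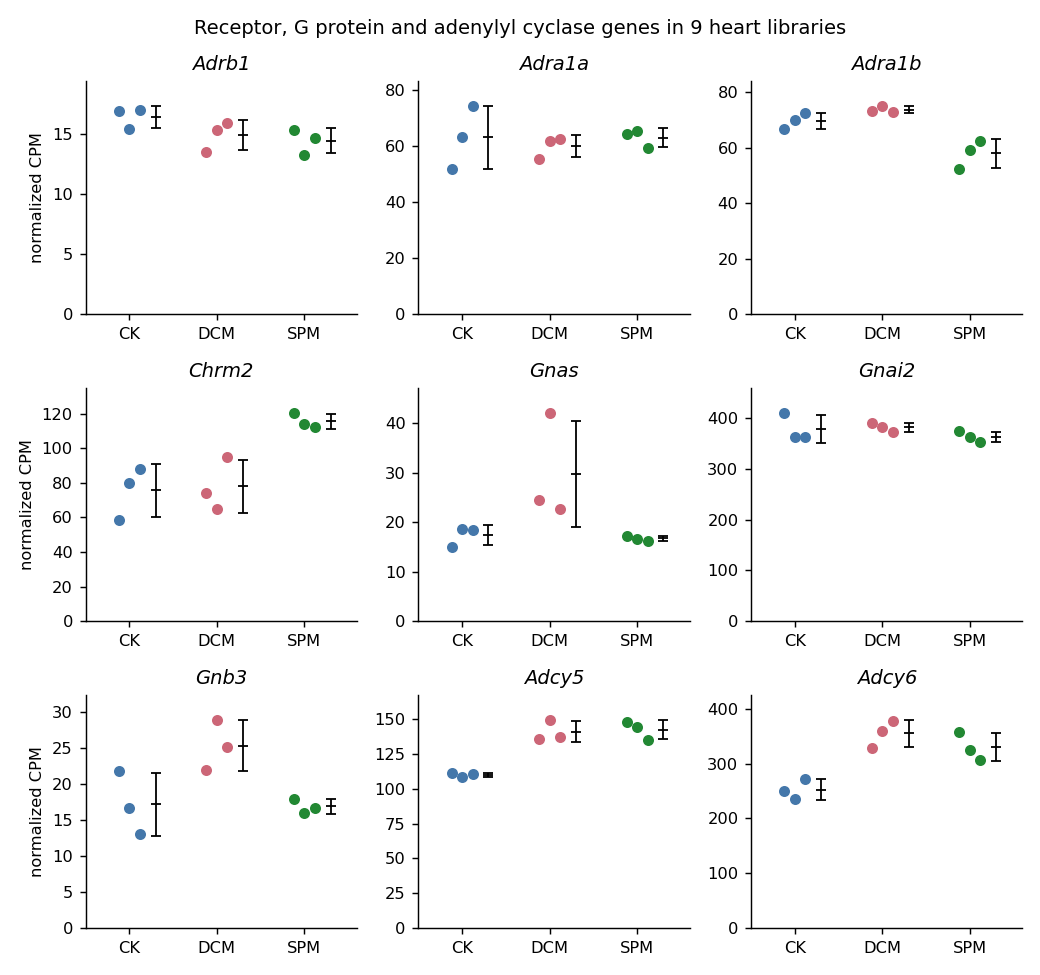
Normalized CPM (vertical axes, each from 0) of the 9 genes in the CK, DCM and SPM libraries (horizontal axes), with 1 point per library and the mean ± SD of 3 libraries beside the points. Adcy5 and Adcy6 lay higher in all DCM and SPM libraries than in all CK libraries, Chrm2 was highest in the 3 SPM libraries, and Gnas reached 42.1 in 1 DCM library.

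Within CK hearts the members differed widely in abundance. In the deposited FPKM values, counts scaled by gene length and library total, which allows genes of different length to be compared, Gnai2 was the most abundant at 179 ± 13.6 (mean ± SD, n = 3), followed by Adcy6 at 43.6 ± 2.74 and Adra1b at 21.9 ± 0.735. Adcy5 (16.4), Adra1a (15.4) and Chrm2 (13.9) followed with overlapping libraries, so that their order was not resolved, and the libraries of Chrm2 also overlapped those of Gnb3 (9.74). Adrb1 at 6.89 ± 0.323 and Gnas at 4.59 ± 0.518 were the least abundant, and neither overlapped its neighbours. The order changed in SPM, where Chrm2 stood at 19.8 ± 0.683 FPKM beside Adcy5 at 19.8 ± 0.904, with overlapping libraries, and above Adra1b at 17.0 ± 1.56. In DCM the libraries of Gnas, at 7.36 ± 2.56 FPKM, overlapped those of Adrb1, at 5.86 ± 0.411.

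The values of Gnas carry an uncertainty of annotation. Gnas encodes the alpha subunit of the stimulatory G protein and lies at chr2:174284320-174346744 (GRCm38, plus strand), a locus with several starts and transcripts on both strands. Of the 1484 exon bases of the opposite-strand gene Gm20721, 1469 lie within Gnas exons, as do 988 of the 1708 of Nespas, in the GENCODE M21 annotation. Neither has a row in the matrix, and whether the counting used strand is not given in the sources used here, so the count of Gnas may leave out or take in reads of this overlap. Its counts were 472 to 1242 per library, against 10863 to 15546 for Gnai2.

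The comparison of DCM with CK asks what diabetes did to these genes. Both adenylyl cyclases and both of the rarer G protein genes were higher in diabetic hearts, and no receptor gene passed the test. With p-values of edgeR's quasi-likelihood test adjusted by Benjamini and Hochberg's method over all 14402 genes, 4 of the 9 members rose at an adjusted p under 0.05 and none fell. Of all genes tested, 10.4% were called in either direction, 5.28% as higher and 5.11% as lower. By DESeq2 3 members rose and none fell, and 4 members had an unadjusted p under 0.05, the same number as passed. Leaving out CK replicate 2 or DCM replicate 2 gave 2 members. The groups did not overlap for 5 members, where this held for 29.3% of all genes. The median log2 fold change of the 9 was 0.08, and that of all genes was -0.00.

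Adcy6, a cyclase of heart muscle inhibited by calcium, stood at 249.9, 235 and 272 normalized CPM in CK, at 328, 359.7 and 378 in DCM, and at 357, 325 and 307 in SPM. Every diabetic library, with or without spermine, lay above every CK library. Adcy6 rose in DCM by a log2 fold change of 0.49 ± 0.08 (SE; adjusted p = 0.00248, edgeR).

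Adcy5, the other main cyclase of cardiomyocytes, stood at 111, 108 and 111 normalized CPM in CK, at 136, 149.6 and 137 in DCM, and at 148, 144 and 135 in SPM. Again no diabetic library reached down to the CK range, which spanned only a few units. Its log2 fold change in DCM was 0.36 ± 0.07 (adjusted p = 0.00585, edgeR). The FPKM of Adcy6 was 2.52 to 2.85 times that of Adcy5 in CK, 2.79 to 3.19 times in DCM and 2.61 to 2.80 times in SPM, so that the groups overlapped. Over the 9 libraries their log2 values had a Pearson correlation of 0.92, a description over libraries that share groups. The rises of Adcy5 and Adcy6 passed the test in DCM compared to CK and in SPM compared to CK under every alternative tried, apart from the added limits on fold change.

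Gnas stood at 15.1, 18.6 and 18.5 normalized CPM in CK and at 24.4, 42.1 and 22.6 in DCM. The groups did not overlap, but DCM replicate 2 was far above the other 2 DCM libraries. Gnas rose by 0.77 ± 0.19 on the log2 scale (adjusted p = 0.0247, edgeR). By edgeR it was the only member past the study's limits for a differentially expressed gene (DEG). These are an adjusted p under 0.05 and a fold change of at least 1.5, and 4.34% of all genes passed them. Without DCM replicate 2 the log2 fold change was 0.44 with an adjusted p of 0.0603, and by DESeq2 on all 6 libraries the adjusted p was 0.0808.

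Gnb3, which encodes a beta subunit of G proteins, stood at 21.8, 16.7 and 13.1 normalized CPM in CK and at 21.9, 29.0 and 25.1 in DCM. The highest CK library and the lowest DCM library were almost equal. It rose by 0.56 ± 0.16 on the log2 scale (adjusted p = 0.0447, edgeR), and leaving out any of CK replicate 2, CK replicate 3, DCM replicate 2 or DCM replicate 3 gave an adjusted p of 0.108 to 0.173, with log2 fold changes of 0.40 to 0.57. The call was also lost with the replicate number as a block (0.58, adjusted p = 0.0588, edgeR) and by limma on FPKM (0.49, adjusted p = 0.107).

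Gnai2, the main alpha subunit of the inhibitory G proteins among the genes measured here, ranged from 363 to 410.1 normalized CPM in CK and from 372 to 391 in DCM, with a log2 difference of 0.01 ± 0.08. The FPKM of Gnai2 was 34.8 to 48.6 times that of Gnas in CK, 16.2 to 29.3 times in DCM and 38.5 to 39.1 times in SPM. This ratio did not overlap between DCM and either other group, and it carries the annotation limit of Gnas.

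Among the receptors, Adrb1, the beta-1 receptor, ranged from 15.4 to 17.0 normalized CPM in CK and from 13.5 to 15.9 in DCM, with a log2 difference of -0.14 ± 0.11 (adjusted p = 0.456, edgeR). Adra1a, an alpha-1 receptor of cardiomyocytes, ranged from 51.8 to 74.2 in CK and from 55.5 to 62.8 in DCM, and its difference of -0.07 ± 0.11 did not pass either. Adra1b, the more abundant alpha-1 receptor in FPKM in every library, stood at 66.9, 69.9 and 72.6 in CK and at 73.2, 75.1 and 72.9 in DCM. Its DCM libraries lay just above those of CK, and the difference of 0.08 ± 0.07 did not pass (adjusted p = 0.529). Chrm2, the M2 receptor, ranged from 58.6 to 87.9 normalized CPM in CK and from 65.1 to 95.0 in DCM, overlapping widely.

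**Figure D2:**
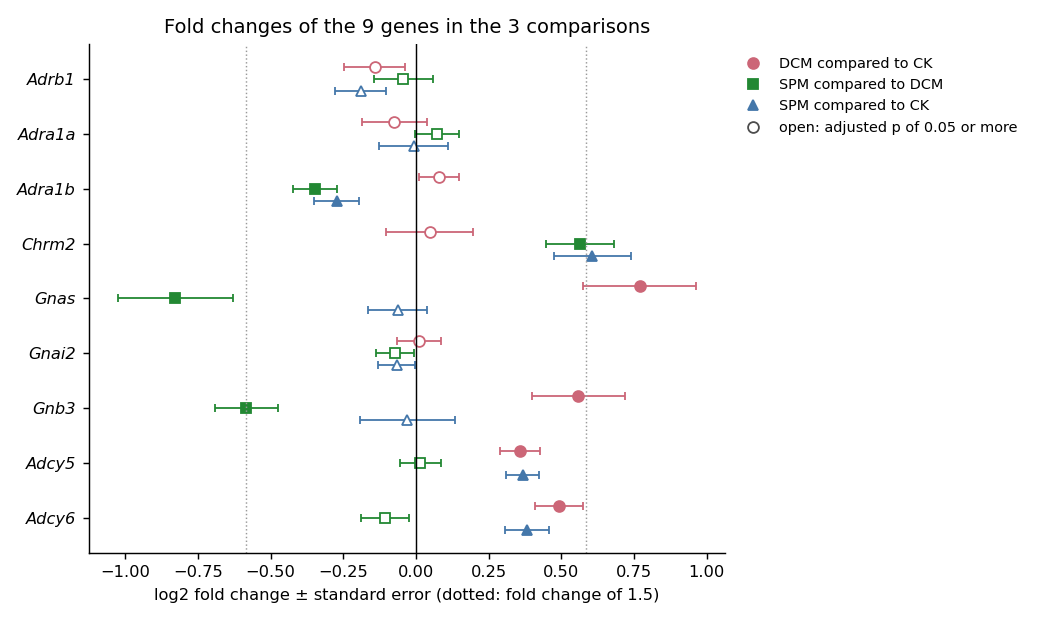
Log2 fold change ± SE (horizontal axis) of each of the 9 genes (vertical axis) in the 3 comparisons, with filled symbols for an adjusted p under 0.05 and dotted lines at a fold change of 1.5. Adcy5 and Adcy6 were higher than CK in both diabetic groups, Gnas and Gnb3 only passed in the comparisons that contain DCM, and Chrm2 and Adra1b only in those that contain SPM.

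The comparison of SPM with DCM asks what spermine did in diabetic hearts. The receptor genes Chrm2 and Adra1b and the G protein genes Gnas and Gnb3 differed, and the cyclases did not pass. By the same test over 14493 genes, 1 member rose and 3 fell, where 16.6% of all genes were called, 8.87% as higher and 7.76% as lower. The groups did not overlap for these 4 members, as for 39.2% of all genes. The median log2 fold change was -0.07 over the 9 members and 0.01 over all genes. Without SPM replicate 2, 0 of the 9 passed by edgeR (4 at an unadjusted p under 0.05), with adjusted p of 0.0566 for Chrm2, 0.0629 for Gnb3, 0.0738 for Gnas and 0.0833 for Adra1b, and 72 of all genes did. Without DCM replicate 1 only Gnb3 passed, and without DCM replicate 2 only Gnas. By DESeq2 on all 6 libraries 4 members passed.

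Chrm2 stood at 74.0, 65.1 and 95.0 normalized CPM in DCM and at 120.5, 114 and 112 in SPM. The 3 SPM libraries were close to each other and above all 6 others. Chrm2 rose by 0.57 ± 0.12 on the log2 scale (adjusted p = 0.0158, edgeR), and without SPM replicate 2 the difference was 0.58. In the same comparison the 10 atrial markers, of tissue in which this receptor is known to be dense, summed to 723 to 1256 normalized CPM in DCM and 1227 to 1969 in SPM, with 1 of 10 higher, and the 7 sinoatrial and conduction markers to 29.9 to 37.2 and 34.8 to 38.5. In CK the atrial sum was 1298 to 1720. Nppa alone made 301 to 521 of this sum in DCM and 563 to 851 in SPM. In DCM compared to CK, where Chrm2 did not pass, 4 of the 10 atrial markers were lower. In SPM compared to CK, where Chrm2 rose, 3 were lower and 1 higher. Of all genes 8.87% were higher in SPM compared to DCM and 5.11% lower in DCM compared to CK. In SPM compared to CK 14.3% were lower and 13% higher. The part of tissue composition in the values of Chrm2 was not tested, and in such bulk RNA more cells of a type cannot be told apart from more RNA per cell.

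Adra1b stood at 52.3, 59.4 and 62.4 normalized CPM in SPM, below all DCM libraries, which were close to each other. It fell by 0.35 ± 0.08 on the log2 scale (adjusted p = 0.0190, edgeR). The other alpha-1 receptor, Adra1a, ranged from 59.3 to 65.4 in SPM and did not pass, with a difference of 0.07 ± 0.07. The FPKM of Adra1b was accordingly 1.49 to 1.69 times that of Adra1a in DCM and 1.04 to 1.35 times in SPM. Adrb1 ranged from 13.3 to 15.4 in SPM, overlapping DCM, so that the FPKM ratio of Chrm2 to Adrb1 was 1.86 to 2.63 in DCM and 3.36 to 3.76 in SPM.

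Gnas stood at 17.3, 16.7 and 16.1 normalized CPM in SPM, in a narrow range under all DCM libraries and inside the CK range. It fell by 0.83 ± 0.20 on the log2 scale compared to DCM (adjusted p = 0.0238, edgeR). By edgeR it was the only member that was a DEG, where 3.59% of all genes were. Gnb3, at 17.98, 16.0 and 16.7 in SPM, fell by 0.58 ± 0.11 (adjusted p = 0.0128, edgeR). Both genes thus rose in DCM compared to CK and fell in SPM compared to DCM. These comparisons share the 3 DCM libraries, so the opposite signs are not independent of each other. The study, which used DESeq2, also lists both Gnas and Gnb3 as changed in DCM and reversed by spermine. Without DCM replicate 2 the difference of Gnas in SPM was -0.50, still with an adjusted p under 0.05, while that of Gnb3 was -0.48 with an adjusted p of 0.0558.

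Gnai2, Adcy5 and Adcy6 overlapped between SPM and DCM, with log2 differences of -0.07 ± 0.06, 0.02 ± 0.07 and -0.11 ± 0.08 in that order. Misses of the threshold do not show that these genes were equal in the groups.

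**Figure D3:**
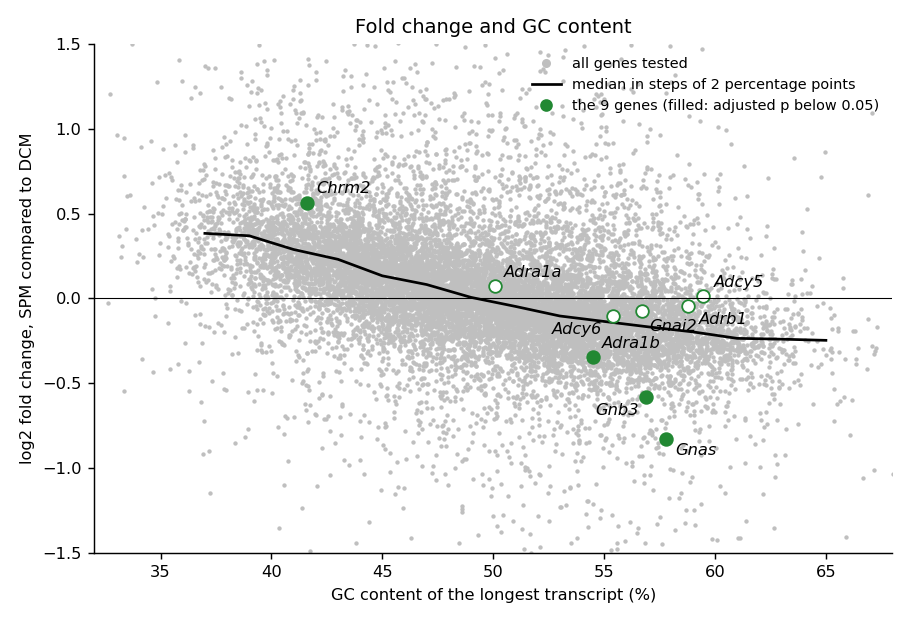
Log2 fold change of SPM compared to DCM (vertical axis, with values beyond it left out) against the GC content of the longest transcript of each gene (horizontal axis, percent), for all genes tested in grey, their median as a line, and the 9 genes in green. The median line runs from above 0 at low GC content to below 0 at high GC content, with Chrm2 at the low end and Gnas, Gnb3 and Adra1b on the other side.

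The fold changes of SPM compared to DCM went with base composition across the transcriptome. Spearman's rho between log2 fold change and GC content was -0.502 over 14484 genes, a description across genes that are not independent, against 0.06 for DCM compared to CK over 14392. Genes under 45% GC had a median log2 fold change of 0.26 and those from 55% one of -0.18. Chrm2, with 41.6% GC the lowest of the members, was the one that rose, while Adra1b (54.5%), Gnb3 (56.9%) and Gnas (57.8%), which fell, lay above the median gene of 49.7%.

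Each member was set against the median of genes of like composition, within 1 percentage point. For the members that passed, the values were 0.57 against 0.27 for Chrm2, -0.35 against -0.13 for Adra1b, -0.58 against -0.17 for Gnb3 and -0.83 against -0.18 for Gnas. As these were picked by passing in the same comparison, their distance from the median was largely set in advance and is a description only. Adcy5 (59.5%) and Adrb1 (58.8%) had values of 0.02 and -0.04 against medians of -0.21 and -0.19. With an offset for each library's trend on GC content, 1 member still passed in SPM compared to DCM, Gnb3 with a log2 difference of -0.47 (adjusted p = 0.0376, edgeR), while Chrm2 had 0.26 (0.105), Gnas -0.69 (0.0588) and Adra1b -0.27 (0.0647), adjusted p in parentheses. In DCM compared to CK 4 members passed with this offset.

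SPM was also compared with CK, which asks how far treated diabetic hearts stood from healthy ones. The cyclases and Chrm2 were higher and Adra1b was lower, while Gnas and Gnb3 did not pass. Over 14574 genes 27.4% were called, 13% as higher and 14.3% as lower, and 3 members rose and 1 fell. The groups did not overlap for 5 members, as for 46.3% of all genes, and the median was -0.03 for the members and 0.00 for all genes.

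Adcy5 rose by 0.37 ± 0.06 (adjusted p = 0.00315, edgeR) and Adcy6 by 0.38 ± 0.08 (adjusted p = 0.00817) on the log2 scale. Both rises are of about the size found in DCM against the same CK libraries. Chrm2 rose by 0.61 ± 0.13 (adjusted p = 0.0113) and was the only DEG among the members, where 9.21% of all genes were DEGs, and its rise passed under every alternative tried. Adra1b fell by 0.27 ± 0.08 (adjusted p = 0.0330), and without SPM replicate 2 it had -0.29 with an adjusted p of 0.105. The call was also lost without CK replicate 2, CK replicate 3 or SPM replicate 1, with differences of -0.27, -0.25 and -0.20. The fold changes of this comparison went with base composition too, with a Spearman's rho of -0.366 over 14564 genes and medians of 0.22 under 45% GC and -0.16 from 55%. With the GC offset Adcy5, Adcy6 and Chrm2 passed, Chrm2 with a smaller difference of 0.33 (adjusted p = 0.0283, edgeR), and Adra1b, at -0.21 with an adjusted p of 0.104 (edgeR), did not.

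The 3 SPM libraries of Adrb1 lay just under the 3 CK libraries, with a difference of -0.19 ± 0.09 that did not pass (adjusted p = 0.140, edgeR). Adrb1 passed in 1 alternative only, limma on FPKM, by which 5 members passed. Gnas and Gnb3 differed by -0.06 ± 0.10 and -0.03 ± 0.16, less than their own SE. Without SPM replicate 2, 3 of the 9 members passed.

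**Figure D4:**
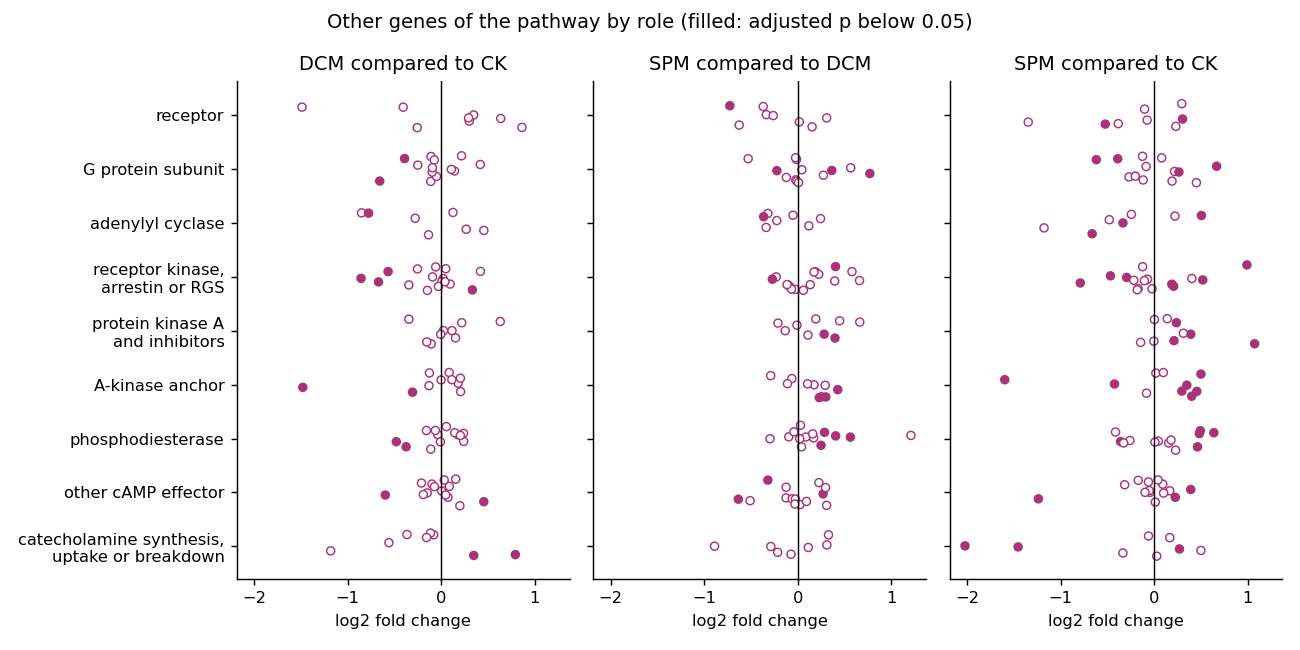
Log2 fold change (horizontal axes) of the other genes of the pathway, 1 point per gene, by role (vertical axis) in the 3 comparisons, filled where the adjusted p was under 0.05. Filled points lay mostly left of 0 in DCM compared to CK (11 of 15) and mostly right of 0 in SPM compared to DCM (13 of 19).

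The rest of the pathway was read from a list of 109 further genes in 9 roles, of which 104 had a row and 98 were tested in each comparison. In DCM 4 rose and 11 fell (15.3% of those tested, where 10.4% of all genes were called), in SPM compared to DCM 13 rose and 6 fell (19.4%, against 16.6%), and in SPM compared to CK 24 rose and 14 fell (38.8%, against 27.4%). The median log2 fold changes were -0.03, 0.03 and 0.01. Single libraries weighed on these counts. The count for DCM was 6 without CK replicate 2, 9 without DCM replicate 2 and 8 without DCM replicate 3. That for SPM compared to DCM was 0 by edgeR without SPM replicate 2 (24 at an unadjusted p under 0.05), 0 without DCM replicate 2 (29 unadjusted) and 7 without DCM replicate 1, against 23 by DESeq2 on all 6 libraries. That for SPM compared to CK was 15 without SPM replicate 2 and 24 without CK replicate 2. With the GC offset the calls over all genes also became fewer in both SPM comparisons, as the closing section gives. Those of the list were then 4 and 24, with 1 and 10 of them higher. In SPM compared to DCM these 4 were Rgs6, higher by 0.37, and Crem, Gng5 and Maob, lower by 0.90, 0.41 and 0.26. Gng5 and Maob had not passed without the offset (-0.02 and -0.07, adjusted p = 0.852 and 0.467, edgeR). Of the calls named below for that comparison, only those of Rgs6 and Crem were therefore kept with this offset.

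None of the 8 tested other receptors passed in DCM by edgeR, where 10.4% of all genes did. Of these receptors 4 had an unadjusted p under 0.05. Adra1d, the rarest alpha-1 receptor here, stood at 1.72 to 1.77 normalized CPM in SPM and 2.64 to 3.24 in DCM and fell by 0.73 ± 0.21 (adjusted p = 0.0395, edgeR), the same direction as Adra1b. The adenosine receptors, which couple to the same G proteins, parted in SPM compared to CK: Adora1, of the inhibitory kind, rose by 0.30 ± 0.09 and Adora2a, of the stimulatory kind and the most abundant of the role at 11.2 FPKM, fell by 0.52 ± 0.14. With the GC offset Adora1 still passed (0.37, adjusted p = 0.0214, edgeR) and Adora2a did not (-0.39, adjusted p = 0.0513, edgeR).

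Of the 13 other G protein subunits tested, 2 fell in DCM, where 5.11% of all genes did. Gng11 fell from 44.1 to 49.3 normalized CPM in CK to 27.5 to 33.03 (log2 fold change -0.66, adjusted p = 0.000597, edgeR) and Gnb4 by 0.39. Both stayed lower in SPM compared to CK. Gng2 stood at 15.7 to 16.9 in SPM, above every other library, and rose by 0.77 ± 0.16 compared to DCM and by 0.67 ± 0.09 compared to CK. Gng12 rose with it in both, by 0.37 and 0.27. With the GC offset Gng12 had 0.09 and 0.01 and passed in neither. Gng2 still passed with it compared to CK (0.45, adjusted p = 0.0218, edgeR). The most abundant other subunit, Gnb1, at 49.7 FPKM, passed in none.

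Of the 7 other cyclases tested, none rose with Adcy5 and Adcy6 in DCM, where 5.28% of all genes rose. Adcy7 fell in DCM from 21.9 to 30.2 normalized CPM to 13.0 to 16.6 (log2 fold change -0.78 ± 0.13, adjusted p = 0.0027, edgeR) and was also lower in SPM compared to CK, by 0.66. Adcy9, the most abundant other cyclase at 9.05 FPKM, fell in SPM compared to DCM by 0.36 ± 0.10, and Adcy1 rose in SPM compared to CK by 0.51 ± 0.12. Adcy7 is known from blood cells, and the 8 macrophage markers summed to normalized CPM of 666 to 870 in CK libraries, of 560 to 651 in DCM libraries and of 663 to 1111 in SPM libraries. Of these markers 5 were lower and 1 higher in DCM, where 5.11% and 5.28% of all genes were. In SPM compared to DCM 4 were higher, where 8.87% of all genes were. The 7 measured of 8 fibroblast markers summed to 2018 to 2117, 1362 to 1457 and 1618 to 1689, with 5 of 7 lower in DCM, where 5.11% of all genes were. These markers did not move alike. Col3a1, a collagen gene, stood at 483 to 506 in CK and 157 to 188 in DCM. Dcn (751 to 862 and 747 to 795) and Pdgfra (80.2 to 83.6 and 78.8 to 88.6) overlapped between CK and DCM. The part of either cell type in the values of these cyclases was not tested.

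Receptor kinases, arrestins and RGS proteins shorten the signal at the receptor or at the G protein. Of 16 tested, Rgs4, Rgs6 and Rgs10 fell in DCM, by 0.67, 0.57 and 0.86 on the log2 scale, and Grk3 rose by 0.33. Of all genes 5.11% fell and 5.28% rose in that comparison. Rgs6, which is known to limit M2 receptor signalling in the heart, stood at 18.7 to 25.2 normalized CPM in CK, at 13.9 to 14.9 in DCM and at 17.1 to 21.1 in SPM, and rose by 0.41 in SPM compared to DCM (adjusted p = 0.0238, edgeR). Ric8a, a chaperone of alpha subunits, fell there by 0.27. Against CK, SPM had 4 of 16 higher and 3 lower, where 13% and 14.3% of all genes were, and with the GC offset 1 and 3. Rgs4 was lower by 0.79 and Grk3 higher by 0.52, and with the GC offset by 1.00 and 0.50. Grk4 rose by 0.99 ± 0.30 but stood at only 1.07 to 3.19 normalized CPM in the 6 libraries. Rgs5, the most abundant at 109 FPKM and a pericyte marker, rose by 0.19. With the GC offset neither Grk4 (0.83, adjusted p = 0.0682, edgeR) nor Rgs5 (-0.12, adjusted p = 0.121, edgeR) passed.

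Of 9 genes of protein kinase A and its inhibitors, none passed in DCM by edgeR, where 10.4% of all genes did. Of these 9 genes, 1 had an unadjusted p under 0.05. Prkar1a, the regulatory subunit that holds the kinase inactive and the most abundant of the role at 164 FPKM, stood at 496, 521 and 516 normalized CPM in CK, 536, 551 and 571 in DCM, and 664, 667 and 689 in SPM. It rose by 0.28 ± 0.07 in SPM compared to DCM (adjusted p = 0.0221, edgeR) and by 0.39 ± 0.05 compared to CK, with all 3 SPM libraries above the others. The inhibitor gene Pkia rose by 0.40 and 0.24 in the same comparisons. Pkib rose by 1.08 in SPM compared to CK, at 0.876 to 2.65 normalized CPM in the 6 libraries. The catalytic subunit gene Prkacb also rose in SPM compared to CK, by 0.21 ± 0.06 (adjusted p = 0.0275, edgeR), as the last of 4 of the 9 genes that did, where 13% of all genes were higher. With the GC offset none of the 9 passed in SPM compared to DCM by edgeR, 0 of them at an unadjusted p under 0.05, and in SPM compared to CK only Prkar1a did. Prkaca, the main catalytic subunit, passed in none, although its levels followed those of Gnas over the 9 libraries with a Pearson correlation of 0.958.

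A-kinase anchoring proteins place the kinase near its targets. In DCM Akap5 fell from 2.89 to 3.63 normalized CPM to 0.847 to 1.33 (log2 fold change -1.48 ± 0.27, adjusted p = 0.00477, edgeR) and Akap13 fell by 0.31. In SPM compared to DCM Akap6, which anchors the kinase at the nuclear envelope of muscle cells, rose by 0.43 ± 0.08, Akap9 by 0.30 and Akap13 by 0.23, and 0 of 10 fell, where 8.87% of all genes were higher and 7.76% lower. With the GC offset none of the 10 passed there by edgeR, and 3 had an unadjusted p under 0.05. Between SPM and CK 5 of 10 rose and 2 fell (27.4% of all genes were called; with the GC offset 2 rose and 1 fell), among them Akap9, higher by 0.50, and Akap5, lower in both diabetic groups. Akap1, the most abundant at 57.9 FPKM, passed in none.

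Phosphodiesterases break down cAMP. Of 13 tested in DCM, Pde7b and Pde4b fell by 0.48 and 0.37 and none rose, where 5.11% of all genes fell and 5.28% rose. Of 14 tested in SPM compared to DCM, 4 rose and 0 fell: Pde7a by 0.56 ± 0.11, Pde1c by 0.41 ± 0.08, Pde3a by 0.29 and Pde4d by 0.25. Of all genes 8.87% were higher in this comparison, and with the GC offset none of the 14 passed by edgeR, where 2 had an unadjusted p under 0.05. Pde1c stood at 48.6, 58.4 and 55.9 normalized CPM in CK, 60.7, 64.1 and 67.4 in DCM, and 92.0, 84.0 and 78.8 in SPM, so that the groups did not overlap, and it rose by 0.64 ± 0.09 in SPM compared to CK (adjusted p = 0.00203, edgeR). Pde4a, the most abundant at 13.0 FPKM among those measured here, passed in none.

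Among other cAMP effectors, Popdc2, a cAMP-binding membrane protein of heart muscle and the most abundant of the role at 268 FPKM, ranged between 467 and 478 normalized CPM in CK, between 626 and 681 in DCM and between 618 and 628 in SPM. It rose by 0.46 ± 0.07 in DCM (adjusted p = 0.00152, edgeR) and by 0.39 ± 0.05 in SPM compared to CK. Crem, a transcription factor of the cAMP response and in part a repressor of it, stood at 9.95, 11.7 and 12.0 in CK, 6.08 to 8.19 in DCM, and 4.59, 4.70 and 5.05 in SPM. The 3 groups did not overlap, and Crem fell in each comparison, by 0.60 ± 0.15 in DCM, by 0.63 ± 0.15 in SPM compared to DCM and by 1.24 ± 0.12 in SPM compared to CK (adjusted p = 0.000748, edgeR). Rapgef3, an exchange factor opened by cAMP, fell in SPM compared to DCM by 0.32.

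Among the genes that make, take up or break down catecholamines, Maob, a degrading enzyme, rose in DCM by a log2 fold change of 0.35 ± 0.08. Between SPM and CK Maob rose by 0.27, Ddc, which makes dopamine, fell by 1.45 ± 0.28, and Slc6a2, the noradrenaline transporter of sympathetic nerves, fell by 2.02 ± 0.51 but had at most 16 counts in any library. With the GC offset Ddc and Slc6a2 still passed in this comparison, and Maob did not (0.11, adjusted p = 0.210, edgeR). None of the 7 tested passed in SPM compared to DCM by edgeR, where 16.6% of all genes did. An unadjusted p under 0.05 was reached by 3 of the 7. With the GC offset Maob passed there, lower by 0.26 (adjusted p = 0.0454, edgeR). The 9 markers of sympathetic neurons and Schwann cells summed to 14.8 to 18.7 normalized CPM in all libraries.

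The genes whose levels most resembled those of each member were found over the 9 libraries among 9991 genes with a mean of at least 5 CPM, by Pearson correlation of log2 values. Adcy5 was followed most closely by Mov10l1 and Fam107a (0.986 and 0.985) and Adcy6 by Bbs2 and Myzap (0.985 and 0.978). Chrm2 was nearest to Eif1ax and Ppp1cb (0.985 and 0.984), Adra1b to Ccdc85c and Synpo2 (0.973 and 0.971), and Adrb1 to Zcchc2 and Psmd6 (0.956 and 0.914). Gnas was nearest to Rab11b-ps2 and Prkaca (0.965 and 0.958), Gnb3 to Ptrh2 and Zfp446 (0.964 and 0.958), Gnai2 to Fam53a and Cabin1 (0.963 and 0.942), and Adra1a to Stam and Eprs (0.882 and 0.877). These are the highest of many correlations over libraries that share groups, and they describe likeness only.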

How the data were processed

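RNA of 9 mouse heart libraries, 3 each of CK, DCM and SPM by their deposited labels, was selected for poly(A), depleted of ribosomal RNA and sequenced on an Illumina instrument. The authors filtered reads with fastp 0.18.0 and deposited a matrix of whole-number counts. The submitters' processing notes also name Bowtie 0.12.2 and the builds mm8 and mm9 without a role, and for the counting tool and its strand setting the sources used here give nothing. The deposited FPKM values equal the count over 1 length per gene and the library total, with a largest relative deviation of 4.8e-13. Gene names and positions are those of GENCODE M21 (GRCm38), which holds 22820 of the 22851 identifiers.

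Each pair of groups, 6 libraries, was filtered by filterByExpr, scaled by TMM and tested in edgeR 4.0.16 (R 4.3.3; glmQLFit and glmQLFTest), with Benjamini-Hochberg adjustment over all genes tested. The limits, an adjusted p under 0.05 and for DEGs a fold change of 1.5, follow the study's methods, which used DESeq2. An SE is the log2 fold change over the square root of F. Levels are normalized CPM, or FPKM between genes. Steps were tested on simulated data. There the test recovered 55.6% of true 1.5-fold changes in DCM compared to CK. It recovered 69.7% of them in SPM compared to DCM and 64.2% in SPM compared to CK. True 4-fold changes were recovered at 95.1%, 98.3% and 95.2% in the same order.

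The members and lists were chosen with earlier results of these data known. From the pathway list, the text names up to 2 genes per role and comparison with the largest change among those that passed without overlap, every DEG, the most abundant gene per role and the 2 genes most like each member. Gng5, Grk3, Pde3a, Pde4d, Prkacb and, as a kinase gene, Prkaca are outside this rule and were chosen after their values were seen. The listed genes Gnai3, Gnaz, Gnb2, Gng10 and Pde2a were not analysed here. The values of 1 further gene that the rule names are not reported here, although the list counts include it.

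Alternatives were RLE normalization, DESeq2 1.42.0, a filter of 1 CPM in 3 libraries or none, fold limits of 1.5 and 1.3, one fit to all 9 libraries, a replicate block, limma 3.58.1 on log2 of FPKM plus 0.1, mitochondrial genes left out, an offset from the lowess trend (span 0.3) of log2 CPM on GC content without and with the block, and each library left out. The trend of each library was centred on its median after values from an uncentred offset had been seen, and the uncentred form was added as an alternative. Python 3.11.15, pandas 2.3.3 and matplotlib 3.10.9 were used for summaries and figures. Precision is limited by 3 libraries per group.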

Additional observations from a re-analysis of the deposited data

How the results depend on the processing

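With 3 libraries per group, calls near the threshold depended on single libraries and on the handling of GC content, and these are the main limits. In DCM compared to CK, 4 members passed in the fit reported, 2 by limma on FPKM, 1 with a fold change of at least 1.5, and 2 to 4 with a library left out. Over all genes 1497 passed, 625 with that fold limit, 817 to 1326 with a library left out and 2450 (1901 higher) with the uncentred GC offset, an alternative added after the data were seen, under which the median of all genes was 0.11. The pathway list had 15 calls, 7 with the fold limit and 6 to 16 with a library left out. In SPM compared to DCM, 4 members passed, 1 with the GC offset, 0 with the uncentred one (edgeR; 5 at an unadjusted p under 0.05), 1 with the fold limit of 1.5, and 0 to 4 with a library left out. Over all genes 2410 passed (1286 higher), 749 (198 higher) and 347 (196 higher) with the GC offset and its uncentred form, 521 and 1299 with fold limits of 1.5 and 1.3, and 72 to 2433 with a library left out. The fit reported tested 14493 genes, and both offsets 14484. The pathway list had 19 calls, 4 and 2 with these offsets, 3 and 8 with the fold limits and 0 to 16 with a library left out. In SPM compared to CK, 4 members passed, 5 by limma on FPKM, 3 with the GC offset, which ends the call of Adra1b, 1 and 2 with the fold limits and 3 to 4 with a library left out. Over all genes there 3989 passed (1900 higher), 3433 (1225 higher) with the GC offset, 3570 (2659 higher) with the uncentred form, 1342 and 2532 with the fold limits and 1544 to 3768 with a library left out. The fit reported tested 14574 genes there, and both offsets 14564. The pathway list had 38 calls, 24 with the GC offset, 11 and 25 with the fold limits and 15 to 32 with a library left out. Apart from the fold limits and the smaller numbers of libraries, the causes of these shifts were not tested.

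The replicate numbers did not pair the libraries: residuals of libraries with the same number had correlations of -0.0746 to 0.205, and those with other numbers -0.284 to 0.218. With the replicate block 3, 4 and 4 members passed in the 3 comparisons in the order above, the call of Gnb3 in DCM compared to CK being lost, and 1302, 2810 and 3826 of all genes. The block with the GC offset gave 1187 calls over all genes and 6 in the pathway list in SPM compared to DCM, and the block with the uncentred offset gave 896, 5, and 2 members.

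Of 486 values of single members under the alternatives, 401 kept their direction and their side of the threshold, 37 lost the call, 1 gained it (Adrb1 in SPM compared to CK) and 47 changed sign. None of the values that changed sign had passed in the fit reported. Differences are on the log2 scale. By limma on FPKM in DCM compared to CK, Adra1b had -0.011, Chrm2 -0.040 and Gnai2 -0.077. With the GC offset, without and with the block, Gnai2 had -0.0066 and -0.0060 in DCM compared to CK. With it in SPM compared to DCM, Adrb1 had 0.098 and 0.10 and Gnai2 0.038 and 0.037. With it in SPM compared to CK, Gnas had 0.043 and 0.052, Gnai2 0.031 and 0.031, and Gnb3 0.074 and 0.092. With the uncentred offset, without and with the block, Adra1a had 0.046 and 0.061 in DCM compared to CK. Under it in SPM compared to DCM, Adrb1 had 0.15 and 0.15, Gnai2 0.086 and 0.085, and Adcy6 0.030 and 0.032. Under it in SPM compared to CK, Adrb1 had 0.086 and 0.085, Adra1a 0.13 and 0.15, Gnas 0.20 and 0.21, Gnb3 0.23 and 0.25, and Gnai2 0.19 and 0.19, the last past the threshold (adjusted p = 0.0367 and 0.0388, edgeR). The replicate block alone gave 0.0067 for Adra1a in SPM compared to CK. With a library left out, DCM compared to CK gave -0.20 to 0.057 for Adra1a, -0.11 to 0.17 for Chrm2 and -0.019 to 0.073 for Gnai2. SPM compared to DCM gave -0.12 to 0.014 for Adrb1 and -0.018 to 0.061 for Adcy5, and SPM compared to CK gave -0.14 to 0.12 for Adra1a and -0.20 to 0.17 for Gnb3.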
